A study of Mus musculus with 8 samples.

Results

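Utrophin (Utrn) and dystrophin (Dmd), the large actin-binding proteins of the dystroglycan complex, were compared with 5 of the other proteins of that complex, namely dystroglycan (Dag1), the sarcoglycans Sgcb and Sgce, the syntrophin Sntb2 and the dystrobrevin Dtna, at the level of their mRNAs in a pulldown from podocytes. The 7 genes were taken by name out of the 19406 named on the array, and all 27 of their probesets among the 46643 on the array were followed. Of these, 12 were bright enough to be tested, out of 13902 tested probesets in all, and they stand for 6 of the 7 genes, since Sgce has no tested probeset.

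The dystroglycan complex spans the plasma membrane and ties the extracellular matrix to cortical actin. Dystroglycan binds laminin, agrin and perlecan outside the cell, and inside it holds dystrophin in skeletal muscle or its close homologue utrophin in most other tissues. Both are very long rod-shaped proteins with an actin-binding region at the N-terminus. Sarcoglycans stabilize dystroglycan in the membrane, while syntrophins and dystrobrevins sit on the C-terminal part of dystrophin or utrophin and recruit signalling proteins. In the kidney, podocytes have utrophin in their foot processes and dystroglycan on the side that faces the glomerular basement membrane, which is rich in the ligands of dystroglycan.

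RNA was hybridized to 8 Illumina Sentrix-6 mouse arrays, 4 for input extracts and 4 for eluates. All 8 came from MPC-5 cells, mouse podocytes with conditional immortalization, which grow at 33°C and were kept at 37°C for 14 days to differentiate. In both fractions the cells stably expressed the +KTS form of the transcription factor WT1 with a tandem affinity tag, according to the labels. So no fraction without the tagged protein is among the arrays. By quantitative PCR the study also found the mRNA of non-muscle myosin IIb (Myh10) enriched in pulldowns from cells with an empty vector. It reports the same for some other candidates, among them Dbn1, with data not shown. Myh10 mRNA was likewise enriched with albumin in place of TEV protease, the enzyme that cuts the tag, although tagged WT1 was then not eluted. The study concluded that neither WT1 nor TEV cleavage was required. It does not name Utrn among the mRNAs examined in the pulldowns with an empty vector. Eluates are what came off IgG Sepharose beads after TEV protease was added, inputs are the same kind of extract kept without beads, and 650 ng of RNA was labelled for each array. The comparison asks which mRNAs were more abundant in the eluates than in the inputs for an equal amount of RNA. The sources used here do not say whether the pulldowns were made from separate cultures, and the p-values therefore cover only the spread between these samples, part of which may be technical.

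The deposited values are the log2 of the signal, and a value of 1 on the log2 scale of changes stands for a doubling. The median signal of all probesets was 64.9 to 84.3 on the inputs and 71.0 to 84.6 on the eluates. A probeset was tested when its signal reached 100 on 3 or more of the 4 eluates, and it was called higher or lower when the adjusted p in limma was at most 0.15, the 15% false discovery rate that the methods of the study use. The study applied that rate to a mixed model over pairs of pulldown and input, and far more probesets passed there than here. Its list of enriched mRNAs also had a cutoff on the fold enrichment. Of the podocyte markers, 5 of the 11 on the array had a signal of at least 100 on all 8 arrays (Synpo, Podxl, Plce1, Trpc6 and Actn4), whereas Tcf21, Cd2ap and Ptpro stayed below 100 on every array and Nphs1 reached 114 at most. Both Wt1 probesets stayed below 100 too, at 91.2 or less, so the arrays do not show the gene of the tagged protein, and whether these probesets can read the introduced copy is not stated. The arrays fall into 2 sets that cut across the fractions: the first principal component of the signals, centred within each fraction, holds 74.7% of their variance and sets inputs 1 and 2 and eluates 1 and 4 (set A) apart from inputs 3 and 4 and eluates 2 and 3 (set B). The sources used here do not say what these sets correspond to, and values within each are given beside the results that they touch.

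Utrophin mRNA was strongly enriched in the eluates. Its brightest probeset, 3390048, had log2 signals of 7.83, 8.17, 7.57 and 7.21 on inputs 1 to 4 and of 11.43, 10.87, 10.45 and 11.50 on eluates 1 to 4. Every eluate lay above every input, and the lowest eluate was still well above the highest input. The mean rose from 7.69 ± 0.40 (SD, n = 4) to 11.06 ± 0.50 (SD, n = 4), or from a mean signal of 213 to one of 2230. This is a log2 fold change of 3.37 (standard error, SE, 0.26, 95% interval 2.79 to 3.94, adjusted p = 0.000218), or 10.3-fold. Only 6 of the 13902 tested probesets had a larger log2 fold change. The change was 3.47 within set A and 3.27 within set B, so it was of like size in both.

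A dimmer probeset of Utrn, 105360711, also rose. Its log2 signals were 5.94, 6.21, 5.99 and 5.67 on the inputs and 7.87, 7.07, 6.80 and 7.49 on the eluates, again with every eluate above every input. Its eluates had signals of 111 to 233, and it was tested through the eluates alone, so a probeset as dim in both fractions would not have been tested. On the inputs its signal was 50.8 to 73.9, no brighter than the median probeset of an array, so that the ratio of its signals need not be the ratio of the transcript. The log2 fold change was 1.36 (SE 0.23, 95% interval 0.84 to 1.87, adjusted p = 0.0329), or 2.56-fold, and it was 2.67 once the 5th percentile of each array was subtracted as background. With no filter on the signal, over all 46643 probesets, it was called as well (adjusted p = 5.56e-10). That fit gave a standard error of 0.19 both to this probeset and to the tested Dmd probeset, which had 0.53 with the filter. Its p thus does not measure the spread of this probeset and adds no support. The call in the filtered fit was lost without replicate 1 (adjusted p = 0.289) and without replicate 3 (adjusted p = 0.162).

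Utrn has 4 further probesets on the array, and none was tested. Their signals were 50.4 to 89.9, below 100 on all 8 arrays, and their inputs and eluates overlapped, with log2 fold changes of 0.03 for 104070670, 0.11 for 100360195, -0.09 for 100520066 and -0.02 for 103830315. The annotation gives 100520066 the same RefSeq mRNA as both enriched probesets, so the probesets annotated to 1 transcript did not read alike.

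Dystrophin, the closest relative of utrophin in this group, gave another picture. Its single tested probeset, 1740041, had log2 signals of 8.58, 8.72, 6.91 and 6.60 on the inputs and of 8.47, 6.68, 6.59 and 8.92 on the eluates. The fractions overlapped almost completely, with high and low arrays in each. The log2 fold change was -0.03 ± 0.53 (SE, adjusted p = 0.999), with a 95% interval from -1.22 to 1.15 that spans 0.430-fold to 2.21-fold. An enrichment at this probeset of the size seen for utrophin lies outside this interval, but a change of 2-fold in either direction does not. With the 2 array sets, drawn from these same signals, as the block, the standard error fell to 0.12 and the adjusted p was 0.893. The change was 0.05 within set A and -0.11 within set B. The other 4 Dmd probesets were below 100 on every array and were not tested. Of these, 103450300 and 3990332 are annotated to the same RefSeq mRNA as 1740041, and their signals were 47.0 to 77.7. Probesets annotated to 1 transcript thus did not read alike here either, and which form of the mRNA 1740041 reads was not tested.

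**Figure D1:**
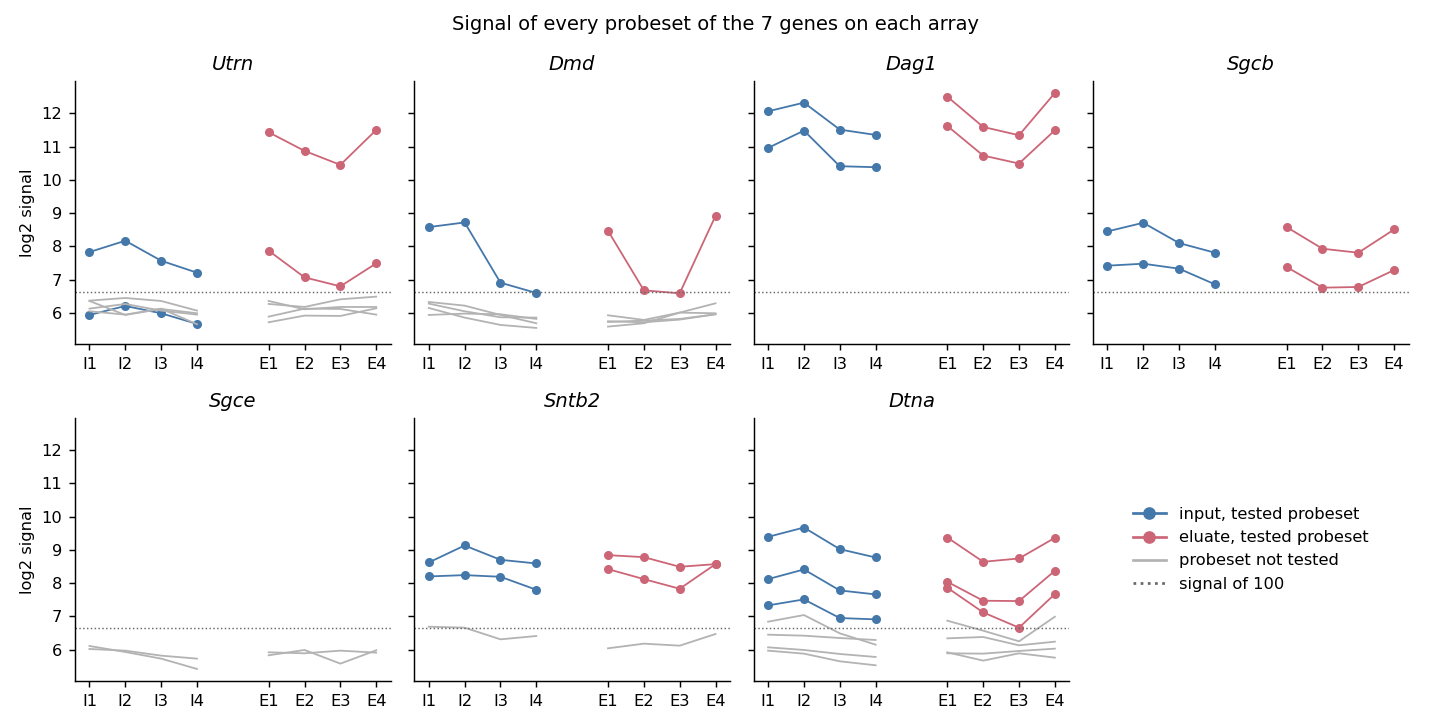
Log2 signal (y axis) of all 27 probesets of the 7 genes on inputs 1 to 4 (I1 to I4) and eluates 1 to 4 (E1 to E4), with a line for each probeset, coloured where it was tested and grey where it was not, and a dotted line at a signal of 100. Both tested Utrn probesets are higher on every eluate than on any input, the tested Dmd probeset splits into 4 high arrays at 8.47 to 8.92 and 4 low ones at 6.59 to 6.91 that mix the fractions, and the tested probesets of Dag1, Sgcb, Sntb2 and Dtna overlap between fractions.

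The spread of dystrophin mRNA within the fractions stood out. The SD within fractions, pooled, was 1.15 on the log2 scale for this probeset, against a median of 0.22 for all tested probesets, and 0.396% of them had a larger one. Inputs 1 and 2 and eluates 1 and 4 had signals of 356 to 483, and the other 4 arrays had signals of 96.4 to 120. These are the arrays of sets A and B. Between them lay a gap of 1.57 on the log2 scale, or 2.97-fold, and the gap was 1.51 after quantile normalization between arrays. For 25 of the 13902 tested probesets set A lay above set B by a wider gap. The sets come from the same signals, so the gap is a description, with no test.

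Some markers of other cell types split in the same way. Smooth muscle actin (Acta2), a marker of mesangial and muscle cells and of activated mesenchymal cells, had log2 signals of 13.87, 13.43, 11.45 and 11.38 on the inputs and of 13.33, 11.63, 11.46 and 13.93 on the eluates, a gap of 1.71 between sets A and B. Megalin (Lrp2), the endocytic receptor of the proximal tubule, was at 10.04, 10.23, 8.53 and 8.48 on the inputs and at 10.07, 8.61, 8.52 and 10.63 on the eluates, a gap of 1.44. So the arrays that were high for Dmd were high for these genes too. Such a split was common: every array of set A lay above every array of set B for 25.4% of all tested probesets. After quantile normalization the share was 14.8%, and the counts of markers below are to be read beside these shares. Of the mesangial and muscle list, 3 of 8 genes were tested and 1 of the 3 had every array of set A above every array of set B. The summed signal of the 3 was 10800 to 16000 on the arrays of set A and 2980 to 3580 on those of set B, nearly all of it from Acta2. Without Acta2 the sum of Pdgfrb and Gata3 was 372 to 470 on set A and 323 to 418 on set B, which overlap. Myod1, Myog and Ckm, which define skeletal muscle, were below 100 on every array. Of the tubule list 1 of 6 genes was tested, and that is Lrp2, while the other 5 had signals of at most 100. Among the podocyte markers 2 of 5 tested genes had every array of set A above every array of set B (Synpo and Plce1), with a summed signal of 14900 to 39800 against 7280 to 29500, where the range of each set spans both fractions. The leukocyte list had 1 tested gene, Cd14, which was higher on every array of set A, and the endothelial list had 1, Kdr, which overlapped. All arrays came from cells of the MPC-5 line, so a high marker here need not mean cells of another type. The part of any cell type or state in the spread of Dmd was not tested, and in bulk RNA fewer cells of a type and less RNA per cell cannot be told apart.

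Dystroglycan mRNA was abundant and did not pass the test. Probeset 460053 of Dag1, whose protein is cut into the matrix-binding alpha and the membrane-spanning beta subunit, had log2 signals of 12.06, 12.32, 11.51 and 11.35 on the inputs and of 12.50, 11.59, 11.34 and 12.61 on the eluates. The highest and the lowest of the 8 values were both eluates. The log2 fold change was 0.20 (SE 0.28, 95% interval -0.44 to 0.84, adjusted p = 0.925), at mean signals of 3730 and 4430. The second probeset, 610341, was at 10.96, 11.48, 10.41 and 10.38 on the inputs and at 11.62, 10.73, 10.49 and 11.49 on the eluates. Its log2 fold change was 0.27 (SE 0.27, 95% interval -0.34 to 0.88, adjusted p = 0.853), and the fractions overlapped. With the array sets as the block, this probeset was called higher in the eluates (adjusted p = 0.121) at the same 1.21-fold, while 460053 was not (adjusted p = 0.263). In that fit 14.4% of all tested probesets were called higher and 15.2% lower.

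The sarcoglycans were not enriched past the test either. For Sgcb, the beta-sarcoglycan, probeset 1240162 had log2 signals of 8.45, 8.71, 8.10 and 7.81 on the inputs and of 8.58, 7.93, 7.81 and 8.51 on the eluates, with a log2 fold change of -0.06 (SE 0.23, 95% interval -0.59 to 0.47, adjusted p = 0.986). Its lowest input and its lowest eluate were equal to 2 decimals. The dimmer Sgcb probeset, 6370711, was at 7.42, 7.48, 7.33 and 6.86 on the inputs and at 7.38, 6.76, 6.78 and 7.29 on the eluates, with a log2 fold change of -0.22 ± 0.21 (SE, adjusted p = 0.842). This was the lowest change of the 10 tested probesets outside Utrn, and eluates 2 and 3 lay below the lowest input while eluates 1 and 4 lay among the inputs. For Sgce, the epsilon-sarcoglycan that takes the place of the muscle alpha form in many other tissues, both probesets had signals of 42.7 to 69.3 on all 8 arrays, with log2 fold changes of 0.03 and 0.05, and no eluate came near 100.

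The cytoplasmic adaptors stayed within the spread between arrays as well. Probeset 2630014 of Sntb2, a PDZ-domain syntrophin that docks signalling proteins, was at 8.62, 9.13, 8.70 and 8.59 on the inputs and at 8.84, 8.78, 8.49 and 8.57 on the eluates. The log2 fold change was -0.09 (SE 0.17, 95% interval -0.47 to 0.29, adjusted p = 0.960), and input 2 was the highest of the 8 arrays. Probeset 5390035 of Sntb2 had log2 signals of 8.20, 8.24, 8.19 and 7.80 on the inputs and of 8.42, 8.12, 7.83 and 8.57 on the eluates, with a log2 fold change of 0.13 ± 0.21 (SE, adjusted p = 0.941). Its input 4 lay apart from the other inputs. The third Sntb2 probeset, 100630112, had signals of 65.9 to 103 and was not tested.

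Dtna, the alpha-dystrobrevin, which binds syntrophins and the C-terminal region of dystrophin or utrophin, has 7 probesets, of which 3 were tested. The brightest, 2850132, was at 9.39, 9.67, 9.02 and 8.77 on the inputs and at 9.37, 8.64, 8.74 and 9.36 on the eluates, with a log2 fold change of -0.18 (SE 0.24, 95% interval -0.73 to 0.36, adjusted p = 0.916). The second, 1340600, was at 8.12, 8.41, 7.78 and 7.66 and at 8.04, 7.47, 7.46 and 8.37, with a log2 fold change of -0.16 ± 0.25 (SE, adjusted p = 0.937). In both, the inputs spanned much the same levels as the eluates. The third, 1780731, was at 7.33, 7.51, 6.95 and 6.91 and at 7.86, 7.12, 6.66 and 7.67, with a log2 fold change of 0.15 ± 0.22 (SE, adjusted p = 0.929), so the probesets of this gene had changes of both signs. Of the 4 others, 3 were below 100 on every array and 2340278 reached 132.

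**Figure D2:**
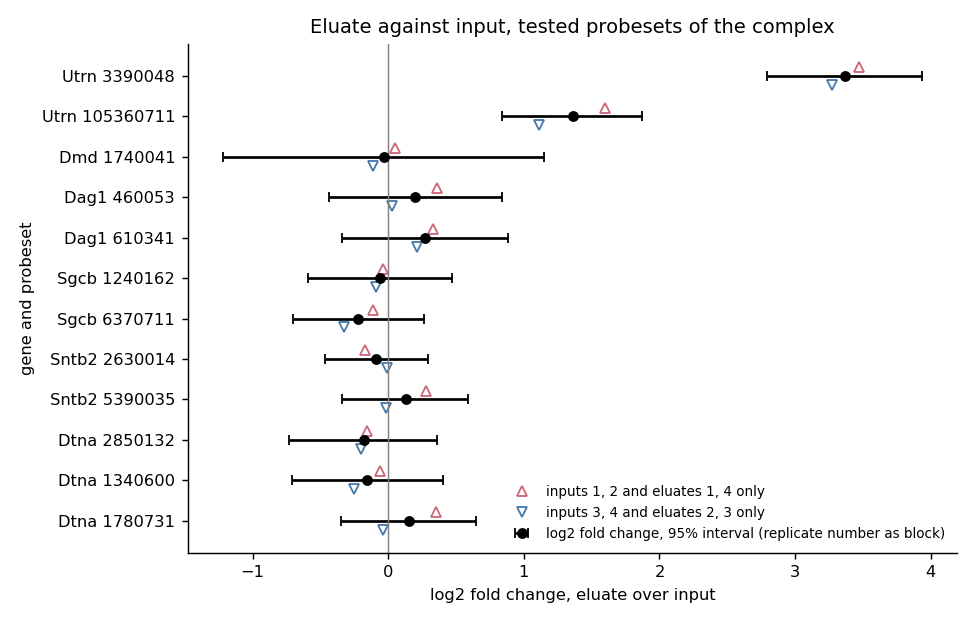
Log2 fold change of the eluates over the inputs (x axis) for the 12 tested probesets (y axis), with black points and bars for the limma estimate and its 95% interval, and open triangles for the mean eluate minus the mean input within each of the 2 sets of arrays. The 2 Utrn probesets, at 3.37 and 1.36, have intervals above 0, and the other 10 lie between -0.22 and 0.27 with intervals that include 0, the widest being that of Dmd.

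Counted over the 12 tested probesets, 2 were called higher in the eluates, both of Utrn, and none was called lower in limma. Among all 13902 tested probesets, 1.09% were called higher and 0.0288% lower. The dimmer of the 2 passed the filter through its eluates alone, so the count of 2 is not support beyond the brighter one. For the same 2 Utrn probesets all 4 eluates lay above all 4 inputs, which held for 4.83% of all tested probesets, while for no member did all 4 eluates lie below all 4 inputs, which held for 5.01%. At an unadjusted p under 0.05, the same 2 probesets were called and none was lower, where 5.52% of all tested probesets were higher and 4.57% lower. The 10 tested probesets outside Utrn had log2 fold changes from -0.22 to 0.27, 4 of them positive and 6 negative, with a median of -0.05 beside a median of -0.007 over all tested probesets. Their adjusted p-values were 0.842 to 0.999, and the lowest was 0.686 without the replicate block. Leaving Dmd aside, their 95% intervals lay between -0.73 and 0.88, or 0.603-fold and 1.84-fold. Of the 10, the Dag1 probeset 610341 was the one called with the array sets as the block, where the standard error of each was 0.12. The 15 member probesets that were not tested had log2 fold changes from -0.31 to 0.11 at signals of 42.7 to 132, of which 13 were below 100 on every array.

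That utrophin mRNA changed more than the mRNA of its partners was tested on the difference between 2 probesets within each array, in which a shift shared by both drops out. The log2 signal of the brightest Utrn probeset minus that of Dag1 was -4.23 to -3.94 on the inputs and -1.11 to -0.73 on the eluates. The fractions lay far apart, and within each the values were close together (SD 0.12 for the inputs and 0.18 for the eluates). The change of Utrn exceeded that of Dag1 by 3.17 on the log2 scale, a 9.0-fold difference in enrichment (two-sided exact permutation test, p = 0.0286, n = 4 arrays per fraction).

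Against Sgcb, the within-array difference was -0.62 to -0.53 on the inputs and 2.65 to 2.99 on the eluates, so the change of Utrn was larger by 3.43. Against Dtna, it went from between -1.56 and -1.45 to between 1.71 and 2.23, a difference in change of 3.55. Over the inputs these were the steadiest pairs, with an SD of 0.04 and 0.05. Over the eluates the SD was 0.15 and 0.22, beside 0.18 for the pair with Dag1. Against Sntb2, the within-array difference was -1.38 to -0.80 on the inputs and 1.96 to 2.93 on the eluates, which makes 3.46. Against the single tested probeset of Dmd, it was -0.75 to 0.66 on the inputs and 2.59 to 4.19 on the eluates. The difference in change was 3.40, with an SD of 0.75 in each fraction. In spite of that spread every eluate lay above every input here too.

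In each of the 5 pairs with another gene the 4 eluates lay above the 4 inputs, and the exact permutation p was 0.0286, the smallest that 70 arrangements of 4 and 4 arrays can give (adjusted p = 0.0286 over the 6 pairs compared). The sixth pair set the brightest Utrn probeset against the dimmer one, whose change was smaller by 2.01 (exact permutation p = 0.0286), a difference that was 1.12 once background was subtracted. The inputs of the dimmer probeset were no brighter than the median probeset of an array, so this pair says little about the transcript. With the mean of all tested probesets of each gene in place of the brightest, the 5 differences in change were 2.13 to 2.50. The mean for Utrn includes the dimmer probeset. Utrn was among the genes that the study had selected as enriched on these same arrays, so that its height in these pairs is not independent evidence.

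Most mRNAs of the complex other than Utrn were split by array set and not by fraction. For 8 of the 10 tested probesets outside Utrn, all 4 arrays of set A lay above all 4 of set B, which held for 25.4% of all tested probesets, and for 7 of them after quantile normalization, against 14.8%. At the brightest probesets the gap between the sets was 1.57 on the log2 scale for Dmd, 0.47 for Dag1, 0.35 for Sgcb and 0.34 for Dtna. Sntb2 was the exception at these probesets, with sets that overlapped by 0.21. Dmd thus had the widest gap of the 5, on the same arrays and in the same direction as the other 3. This is a description, since the sets were defined on these signals. The dimmer tested Sntb2 probeset, 5390035, did split, with log2 signals of 8.20 to 8.57 on set A and 7.80 to 8.19 on set B. The dimmer Sgcb probeset, 6370711, did not, as its lowest array of set A was at 7.29 and its highest of set B at 7.33.

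**Figure D3:**
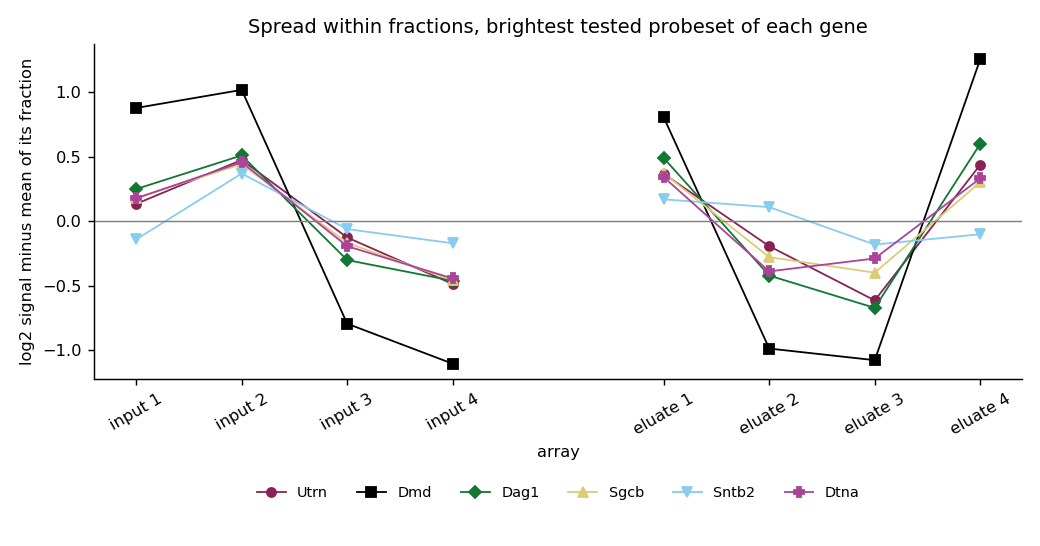
Log2 signal minus the mean of its fraction (y axis) on each of the 8 arrays (x axis), for the brightest tested probeset of 6 genes, with the points of a gene joined by a line within a fraction. Inputs 1 and 2 and eluates 1 and 4 lie above the mean and the other 4 arrays below it for Utrn, Dag1, Sgcb and Dtna, Dmd follows the same arrays with a gap of 1.57, and Sntb2 does not follow them.

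Genes that build, modify or bind the complex were counted next, with 54 other genes in 6 lists, of which 46 have a probeset under their symbol on the array and 29 have a tested one. At the brightest tested probeset of each gene, 1 of the 29 was called higher in the eluates and none lower, beside 1.08% higher and 0.0115% lower over all 8674 tested genes. The median log2 fold change of the 29 was 0.02, and that of all tested genes was 0.001. The gene called was plectin (Plec), a very large cytolinker that binds intermediate filaments and actin and, in muscle, attaches to dystrophin and beta-dystroglycan. Its inputs had a mean log2 signal of 12.21 ± 0.19 (SD, n = 4) and its eluates one of 14.83 ± 0.10 (SD, n = 4), a log2 fold change of 2.62 ± 0.17 (SE, adjusted p = 0.000105), and its other tested probeset was at 3.33 (SE 0.20, adjusted p = 0.000105). The change at the first probeset was 2.81 within set A and 2.44 within set B. Without Plec the count was 0 of 28 in limma, with 1 higher (Synm) and 0 lower at an unadjusted p under 0.05, where 5.73% of all tested genes were higher and 4.40% lower. In the fit with no replicate block, 1 was higher and 3 were lower at that p, beside 7.95% and 7.34% of all tested genes. With the array sets as the block, 6 of the 29 were called higher and 5 lower, where 15.5% and 14.6% of all tested genes were.

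Among the remaining membrane components, 2 of 5 other sarcoglycan and sarcospan genes were tested and neither was called, also at an unadjusted p under 0.05. Sgcd, the delta-sarcoglycan, had a log2 fold change of -0.12 ± 0.17 (SE, adjusted p = 0.921), and sarcospan (Sspn), a tetraspan protein that joins the sarcoglycans, one of -0.45 (SE 0.25, adjusted p = 0.613). Sspn was called lower with the array sets as the block (adjusted p = 0.00502) and without replicate 4 (adjusted p = 0.119). The block by array sets called 14.6% of all tested genes lower. Without replicate 4 the fractions are unequal over the array sets, and 1079 of all tested probesets were called lower, against 4 in the main fit. The log2 fold change of Sspn was -0.74 there, beside -0.41 within set A and -0.50 within set B. None of the 4 other syntrophin genes had a tested probeset. The beta-dystrobrevin Dtnb, the form found in most tissues outside muscle, was at 11.77 ± 0.21 (SD, n = 4) on the log2 scale for the inputs and at 11.78 ± 0.15 (SD, n = 4) for the eluates at its brighter probeset (log2 fold change 0.02, standard error 0.17, adjusted p = 0.999). Its dimmer tested probeset was at -0.37 (SE 0.18, adjusted p = 0.545) and was called lower with the array sets as the block (adjusted p = 0.0197). That fit called 15.2% of all tested probesets lower.

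Of 14 signalling and cytoskeletal partners, 9 were tested, with a median of 0.23. Besides Plec, caveolin 1 (Cav1), a coat protein of caveolae, was at -0.14 (SE 0.16), the polarity kinase Mark2 at 0.23 (SE 0.20) and the syntrophin-associated kinase Mast2 at 0.02 (SE 0.18), with adjusted p-values of 0.811 to 0.997. Synemin (Synm), an intermediate filament protein that binds dystrobrevin, utrophin and dystrophin, falls outside the rule for naming genes and is given because its change was next to that of Plec. Its brighter probeset was at 1.55 (SE 0.46, adjusted p = 0.298), with inputs and eluates that overlapped, and its dimmer one at 0.84 (SE 0.30, adjusted p = 0.384). Both were called with the array sets as the block (adjusted p = 1.46e-11 and 8.27e-06), a block drawn from these same signals. Plec and Synm were both among the genes the study had selected on these arrays. The block by array sets called 4 of the 9 higher, beside 15.5% of all tested genes.

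Of 10 ligand genes 6 were tested, none was called, also at an unadjusted p under 0.05, and the median was 0.10. Agrin (Agrn) was at -0.04 (SE 0.25), perlecan (Hspg2) at 0.43 (SE 0.24), and the laminin chains Lamc1 and Lamb2 at 0.29 and 0.17, with adjusted p-values of 0.621 to 0.996. Hspg2 and Lamc1 were called higher with the array sets as the block (adjusted p = 0.00804 and 0.0743), again beside 15.5% of all tested genes. Of 18 genes for the glycosylation that lets alpha-dystroglycan bind laminin, 11 were tested and none was called, also at an unadjusted p under 0.05, where the fit with no replicate block had 3 lower, beside 7.34% of all tested genes. The median was -0.16, with 3 of the 11 above 0. The dolichol-phosphate-mannose synthase subunits Dpm2 and Dpm3 were at -0.26 and -0.28 (SE 0.16 for each), the ribitol-xylosyltransferase Rxylt1 at -0.45 (SE 0.20) and the glucuronyltransferase B4gat1 at -0.06 (SE 0.21), with adjusted p-values of 0.507 to 0.986. With the array sets as the block 4 of the 11 were called lower, beside 14.6% of all tested genes. Among them were Rxylt1, Dpm2 and Dpm3 (adjusted p = 0.00457, 0.103 and 0.0858). Rxylt1 was also called lower without replicate 4 (adjusted p = 0.116). In that fit the fractions are unequal over the array sets and 1079 of all tested probesets were called lower.

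**Figure D4:**
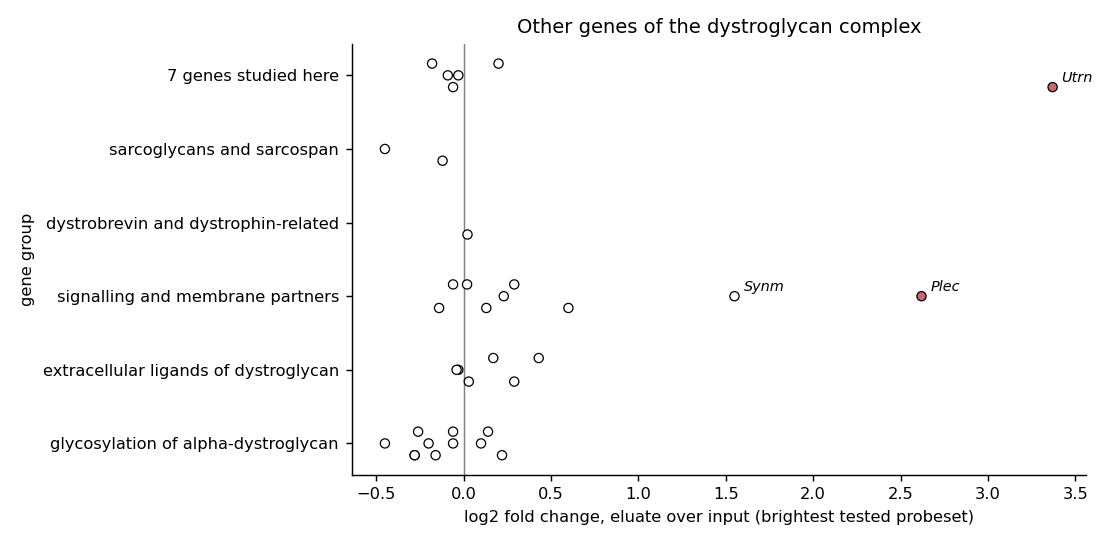
Log2 fold change of the eluates over the inputs (x axis) at the brightest tested probeset of each gene, in rows for the 6 tested genes studied here and for the lists of other genes of the complex, with filled points for genes called in limma. Utrn at 3.37 and Plec at 2.62 are the only filled points, Synm at 1.55 is open, and the remaining genes lie between -0.45 and 0.60.

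The genes whose pattern over the 8 arrays was most like that of Utrn were found by the root mean square difference of log2 signals after the mean of each probeset was subtracted, among 8674 genes. They were 2900026A02Rik with a difference of 0.19, non-muscle myosin IIb (Myh10) with 0.20, drebrin (Dbn1) with 0.23, the beta-spectrin Sptbn1 with 0.26 and supervillin (Svil) with 0.36. Their log2 fold changes were 3.11 to 3.65, beside 3.37 for Utrn. Of these, Sptbn1, like utrophin, has an actin-binding region of the actinin type. The genes nearest to Dag1 were Ctse and P4ha1, each with a difference of 0.06, Phlda1 and Zfp536, each with 0.07, and Man2a1 with 0.08, and their log2 fold changes were 0.15 to 0.25. No gene of the complex was among either 5. The likeness is a description over 8 arrays of 2 fractions and carries no test.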

How the data were processed

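RNA of 4 inputs and 4 eluates was hybridized to Illumina Sentrix-6 mouse arrays. The authors deposited log2 signals for 46643 probesets on each array, and BeadStudio and Partek 6.4 are the tools in the submitters' processing notes. The sources used here do not say whether arrays were normalized to each other. Other deposited tables, titled as normalized and non-normalized data, hold 24 further columns of values per sample with names that fit none of the sample labels, and none of these was used.

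Names of probesets come from the platform annotation, in which 32794 have 1 gene symbol, 55 have several and 13794 have none. No symbol changed when looked up by its Entrez ID. Listed genes with no probeset under their symbol were not analysed here. No value was below the floor of 16, the lowest signal being 31.2. For the 13902 tested probesets, lmFit and eBayes of limma 3.58.1 (R 4.3.3) were run on the log2 signals with fraction and replicate number as terms, with Benjamini-Hochberg adjustment over all 13902. The signal filter stands in for the detection filter of the methods. A gene is represented by its tested probeset with the highest mean log2 signal. Differences in change between probesets were tested by two-sided exact permutation over the 8 arrays. Tables were handled in pandas 2.3.3 and numpy 2.4.6 under Python 3.11.15, and plots were drawn in matplotlib 3.10.9. The fit was run on simulated data with independent noise on each array. The simulation did not include the 2 array sets, so it does not show how the fit behaves in their presence.

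The methods pair each pulldown with its parallel input, so the replicate number was kept as the block, but inputs and eluates of the same number did not deviate together. Alternatives were no replicate block, the 2 sets of arrays as the block, quantile normalization, median centring, other filters, background subtraction, a trended prior, a cutoff of 0.05, and leaving out each replicate number. Values within each set of arrays were added after the data were seen. The members, the gene lists and the array sets were chosen with earlier results of these data known. Named are all probesets of the members, genes of each list past the cutoff and up to 4 with the highest mean log2 signal, and the 5 genes most like Utrn and like Dag1. Protein sequences were not analysed here. Arrays give no counts, so their number, 4 per fraction, limits the precision.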

Additional observations from a re-analysis of the deposited data

Results flagged for a closer look

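In 3 of the 54 groups of 4 arrays looked at, 1 for each fraction of each named probeset, the array at one end stood far from the other 3. Chance gives this in about 1 in 20 groups. For Sntb2, the syntrophin, input 4 of probeset 5390035 had a log2 signal of 7.80, while the other inputs were at 8.19 to 8.24. For the caveolar protein Cav1, input 2 was at 12.40 and the others at 12.14 to 12.18. For plectin (Plec), input 3 was at 12.49 and the others at 12.10 to 12.12, all far below the eluates.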

How the results depend on the processing

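The Utrn probeset 3390048 was called higher under every alternative run (log2 fold change 3.06 to 3.59 when a replicate number was left out, adjusted p at most 0.00873), and no member probeset was called lower under any. The dimmer Utrn probeset was removed by the filter of 200, which leaves 1 member probeset called against 2, and leaving out a replicate number left 1 to 2. With the array sets as the block there were 3, the third being that of Dag1. The replicate numbers did not pair the samples: deviations from the fraction mean correlated at 0.47, -0.66, 0.74 and -0.76 for numbers 1 to 4. Without the replicate block 497 probesets were higher and 335 lower, against 152 and 4 with it. The counts were 2006 and 2118 with the array sets as the block, 477 and 336 with quantile normalization, 420 and 307 with median centring, 320 and 70 with no filter, and 84 and 0 at a cutoff of 0.05. The filter of 200 gave 12 lower and background subtraction 11. Leaving out a replicate number gave 53 to 395 higher and 0 to 1079 lower. Without replicate 2 or 4 the fractions are unequal over the array sets.

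The differences in change between Utrn and Dmd, Dag1, Sgcb, Sntb2, Dtna and the dimmer Utrn probeset were 2.96 to 3.88, 3.08 to 3.22, 3.38 to 3.51, 3.17 to 3.59, 3.49 to 3.68 and 1.86 to 2.12 when a replicate number was left out, where 3 against 3 arrays cannot give a p below 0.1. Leaving out a number turned the sign of small log2 fold changes: Dmd went from -0.82 to 0.63, Dag1 from -0.15 to 0.51 (460053) and -0.01 to 0.61 (610341), Sgcb 1240162 from -0.31 to 0.18, Sntb2 5390035 from -0.09 to 0.29, and the Dtna probesets from -0.44 to 0.10, -0.45 to 0.11 and -0.05 to 0.33. So did Dtnb (-0.10 to 0.13, and -0.00 with median centring), Mast2 (-0.14 to 0.10), Lamb2 (-0.06 to 0.29), Agrn (-0.35 to 0.21) and B4gat1 (-0.28 to 0.14). None of these was called in the main fit or when a replicate number was left out, though Dag1 610341 was with the array sets as the block. The cause of the turned signs was not tested. For the 13 member probesets below 100 on every array, a fall could not be told from background at this signal.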
